A study of Mus musculus with 6 samples.

Results

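Amino acids enter, leave and move within cells through carrier proteins of a few gene families, and the transcripts of 6 of these families were read here in nuclei of mouse subcutaneous white fat. The genes were chosen by symbol alone, as every gene of the Slc1, Slc3, Slc7, Slc36, Slc38 and Slc43 families in the gene lists of the libraries. That gave 42 members of 32285 genes: 7 of Slc1, 2 of Slc3, 15 of Slc7, 4 of Slc36, 11 of Slc38 and 3 of Slc43. The libraries came from GPSM1f/f mice, called controls below (n = 3), and from GPSM1ΔTreg mice, called knockouts (n = 3). By their name, the knockouts lack Gpsm1, a regulator of G protein signalling, in regulatory T cells, and the promoter that drives the deletion is not given in the sources used here. All 6 mice carried the label of a 12-week high-fat diet, which began at 7 weeks of age per the treatment protocol (where the high-fat diet is given as 5 to 12 weeks), so no lean group enters. Each library is one replicate, and nothing in the labels says whether mice of the same number were littermates or were processed together.

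As background, Slc1 proteins carry glutamate (Slc1a1, Slc1a2, Slc1a3, Slc1a6, Slc1a7) or small neutral amino acids (Slc1a4, Slc1a5). Slc3a1 and Slc3a2 are single-pass heavy chains that pair with light chains of the Slc7 family, among them Slc7a5 and Slc7a8 for large neutral amino acids, Slc7a6 and Slc7a7 for cationic ones, Slc7a10 for small neutral ones such as serine and glycine, and Slc7a11 for the exchange of cystine against glutamate. Slc7a1 to Slc7a4 belong to the cationic carriers, which work without a heavy chain. Slc36 proteins move small amino acids with protons, Slc38 proteins carry glutamine and other neutral amino acids with sodium or sit on lysosomes (Slc38a9, which reports arginine to mTORC1), and Slc43a1 and Slc43a2 carry large neutral amino acids, whereas Slc43a3 is known as a purine nucleobase carrier. White adipocytes are known to take up and break down amino acids, and Slc7a10 and Slc36a2 are used as surface or marker genes in adipocyte work.

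The results below turn on Slc7a11, the cystine and glutamate exchanger, and on its heavy chain partner Slc3a2. Slc7a11 lies on the minus strand of mouse chromosome 3 (GENCODE vM21 on mm10, 49892526 to 50443614), and its span of 551 kb includes the introns. Transcripts of Slc7a11 and Slc3a2 were both higher in adipocyte-like nuclei of the knockouts, though Slc3a2 did not pass the test described below. The RefSeq promoter windows of both genes (GRCm38.p6) are printed for this reason and because the 2 proteins work as one transporter. Each holds the 250 bases before the RefSeq start, read 5′ to 3′ on the gene's own minus strand: chr3:50443614-50443863 for Slc7a11 and chr19:8713898-8714147 for Slc3a2. Capitals mark matches to TGATGNAA, the core letters of the amino acid response element, searched on both strands.
Slc7a11: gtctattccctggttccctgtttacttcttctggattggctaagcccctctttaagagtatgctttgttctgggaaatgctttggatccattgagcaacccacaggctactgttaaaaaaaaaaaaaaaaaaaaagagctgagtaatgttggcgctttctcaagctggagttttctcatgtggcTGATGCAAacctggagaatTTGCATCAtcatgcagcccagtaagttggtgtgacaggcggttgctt
Slc3a2: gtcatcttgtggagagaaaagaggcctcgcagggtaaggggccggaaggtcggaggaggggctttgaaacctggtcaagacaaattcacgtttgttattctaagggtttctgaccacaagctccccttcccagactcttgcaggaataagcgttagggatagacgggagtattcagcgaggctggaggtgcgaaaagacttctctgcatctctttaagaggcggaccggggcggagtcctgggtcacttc

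The Slc7a11 window held 2 matches, 66 and 47 bases before the start and on opposite strands, and the Slc3a2 window held none. That Slc3a2 window lies inside the GENCODE span of the gene (chromosome 19, 8706882 to 8723369, minus strand). The bases before the GENCODE start of Slc3a2 were not searched. Of 32851 promoter windows of the same length, 3.45% held at least 1 match. Of the 42 windows that belong to the 31 members with an entry, 3 did, 1 of Slc7a11 and the others of Slc7a7. A second set of letters, TGACNNNGC for the antioxidant response element, was in 10.2% of all windows and in those of Slc7a1, Slc7a6, Slc38a2 and Slc43a1. No member had matches to both sets. A match describes letters, not a bound site.

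The 6 libraries held 65162 barcodes, of which 56451 passed the filters, and 33278979 to 48717526 UMIs per library remained. A UMI is a tag that counts one captured RNA molecule, and levels are given as CPM, UMIs scaled to 1e+06 UMIs of the nuclei described. Libraries shared 24 to 44 barcode sequences per pair. Nuclei fell into 34 clusters, and 26 of them could be named from marker genes, which left 91.1% of the kept nuclei in a named class. The adipocyte-like class, with all 8 adipocyte markers detected, had 13240 nuclei, and the progenitor class had 11795 and is called ASPC-like (adipose stem and progenitor cells). One unnamed cluster of 3213 nuclei, of low depth (median 1245 UMIs), had all 8 adipocyte markers and drew 2868 nuclei from control 3 alone. It was left out of the adipocyte-like class, and the results that depend on this are given with it put back. B-cell-like nuclei were 2.7% ± 2.09 of the controls and 23.4% ± 13.8 of the knockouts (SD, n = 3), and T-cell-like nuclei 1.62% ± 0.489 and 8.48% ± 4.57. Gpsm1 cannot be checked at the level of regulatory T cells. In all T-cell-like nuclei its level was 33.7, 48.6 and 18.0 CPM in control libraries, from 6 to 10 UMIs, and 21.7, 21.9 and 19.7 CPM in knockout libraries.

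Of the 42 members, 29 reached 10 CPM in at least 1 of 10 described classes, and 13 did not in any. Among the 29, the highest mean stood in adipocyte-like nuclei for 7 members, in macrophage-like nuclei for 8, in ASPC-like and dendritic-cell-like nuclei for 3 each, in endothelial-like, mural-like and NK-cell-like nuclei for 2 each, and in B-cell-like and T-cell-like nuclei for 1 each. The 13 low members included Slc7a12, Slc38a5, Slc7a9 and Slc38a8, with 3, 1, 6 and 8 UMIs in all kept nuclei. Below, highest, lowest and next class refer to these 10 classes alone. Smaller clusters, such as the epithelial-like cluster of 421 nuclei and the skeletal-muscle-like cluster of 127, stand outside them. The classes come from other genes of the same nuclei, so their levels are a description and carry no test.

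**Figure D1:**
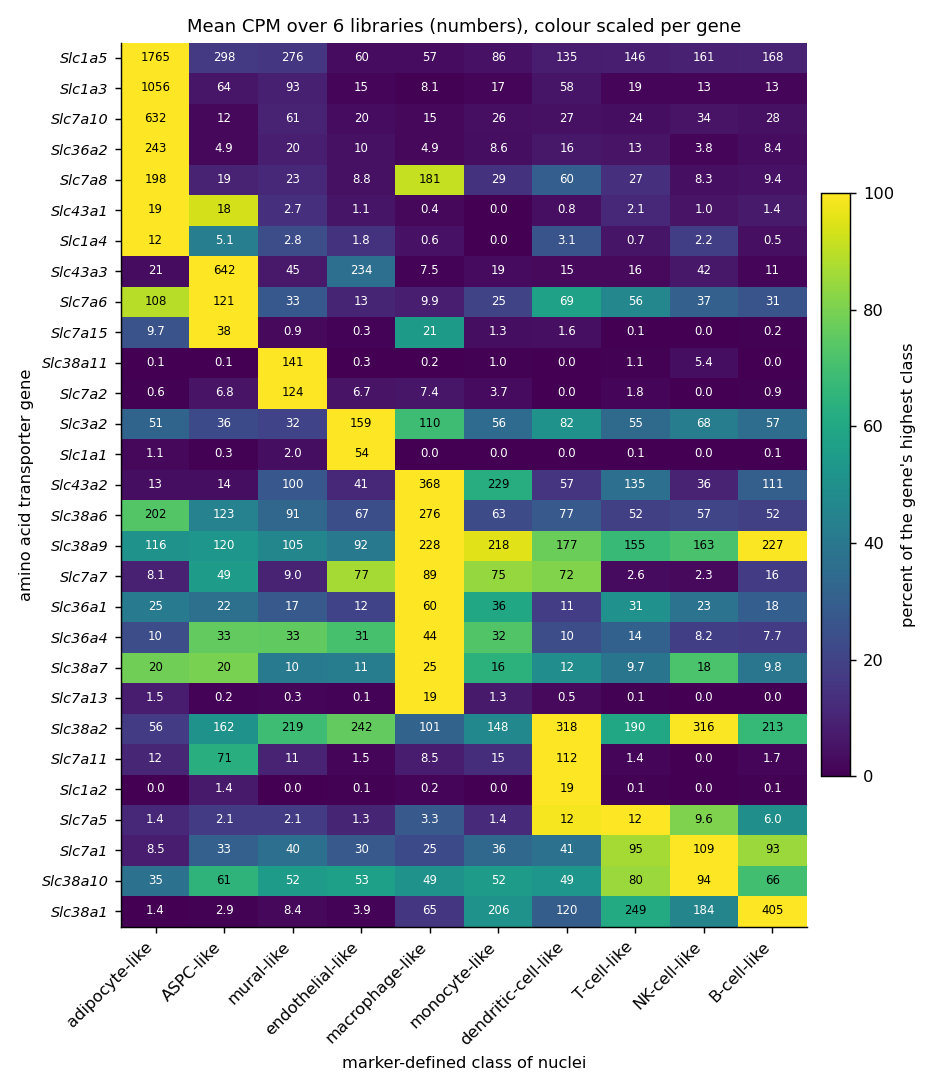
Mean CPM over 6 libraries of the 29 members that reach 10 CPM in a class (rows) in 10 classes of nuclei (columns); the numbers are CPM and the colour is the percent of that gene's own highest class. Slc1a5, Slc1a3, Slc7a10 and Slc36a2 stand highest in adipocyte-like nuclei, Slc43a3 in ASPC-like, Slc7a2 and Slc38a11 in mural-like, Slc1a1 in endothelial-like, Slc43a2 in macrophage-like and Slc38a1 in B-cell-like nuclei.

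Among the heavy chains, Slc3a2 was present in every class and Slc3a1 reached at most 5.19 CPM. Among the 10 classes Slc3a2 was highest in endothelial-like nuclei, at 147, 159 and 112 CPM in control libraries and 162, 184 and 193 in knockout libraries. Macrophage-like nuclei came next at 110.2 ± 13.4 CPM (SD, n = 6), below endothelial-like nuclei in 6 of 6 libraries. Outside the 10 classes, the epithelial-like cluster held 316 CPM and an unnamed cluster led by Frmpd4 held 347. Adipocyte-like nuclei held 51.4 ± 9.53 CPM and ASPC-like nuclei 35.6 ± 4.59.

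The light chains divided by class. Slc7a10 was at 632 ± 39.8 CPM in adipocyte-like nuclei, 10.3 times the mural-like mean of 61.1 ± 42.2 and above it in 6 of 6 libraries. In ASPC-like and macrophage-like nuclei Slc7a10 stood at 2.02% and 2.39% of its adipocyte-like level. Slc36a2 had shares of 2.05% and 2.08%. Of 4 adipocyte genes measured in the same way, Plin1, a lipid droplet coat gene, was at 1.71% and 1.89%, Cidec at 1.92% and 2.25%, Acvr1c at 1.12% and 1.18%, and Adipoq, the adiponectin gene, at 9.24% and 10.04%. Free adipocyte RNA in droplets can give such shares, its part was not tested, and these low levels are not read as expression.

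Slc7a8 differed from that pattern, with 198 ± 32.4 CPM in adipocyte-like and 181 ± 38 in macrophage-like nuclei. The order of these classes held in 5 of 6 libraries, and the means differed by less than 1 SD. Slc7a6 was at 121 ± 8.66 CPM in ASPC-like and 108 ± 10.8 in adipocyte-like nuclei, an order that held in 4 of 6 libraries. Slc7a7, outside the genes chosen for full description by the rule and named after its values were seen, was at 88.8 ± 12.3 in macrophage-like and 76.7 ± 12.1 in endothelial-like nuclei, against 8.15 ± 2.51 in adipocyte-like nuclei. Slc7a13 and Slc7a15, named in the same way, were highest in macrophage-like (18.5 ± 7.28) and ASPC-like nuclei (37.9 ± 10.2), each in 6 of 6 libraries.

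Slc7a11 was low in adipocyte-like nuclei (12.0 ± 5.6 CPM) and higher in ASPC-like nuclei (70.8 ± 16.5). Its highest mean, 112 ± 127 CPM in dendritic-cell-like nuclei, was uneven, at 4.92, 0 and 56.0 CPM in control libraries and 193, 90.3 and 327 in knockout libraries. Of the 253 UMIs behind it, 251 came from a cluster of 255 nuclei led by Apol7c, Fscn1 and Ccl22. The 3 controls gave 10, 7 and 38 nuclei to that cluster, and the 3 knockouts gave 109, 17 and 74. Dendritic-cell-like nuclei were not tested between the groups, and the part of this makeup in the values was not tested. The cluster led by Pde11a and Bmper held 99.6 CPM of Slc7a11, the highest of the ASPC-like clusters. An unnamed cluster of 254 nuclei led by Pcdh15 and Cxcl13, outside the 10 classes, held 300 CPM from 304 UMIs. Controls gave 0, 0 and 8 nuclei to that unnamed cluster, and knockouts gave 142, 25 and 79. Its part in the whole-tissue values of Slc7a11 given below was not tested.

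Of the cationic carriers, Slc7a2, an arginine and lysine carrier, was at 124 ± 37.8 CPM in mural-like nuclei, the cells around small vessels, and 16.7 times higher there than in the next of the 10 classes. It was higher still in the skeletal-muscle-like cluster (482 CPM) and in the unnamed cluster led by Prlr (567). Its 6 mural-like values were 107, 111 and 69.7 CPM in control libraries and 172, 124 and 162 in knockout libraries. These do not overlap, as was so for 6.03% of all genes tested in this class in that direction and 5.57% in the other, and the difference missed the threshold. Slc7a2 was also at 1629 CPM in an unnamed cluster of 136 nuclei that carried the liver genes Alb and Cps1, with nuclei from 4 of the 6 libraries. Slc7a1 was lowest in adipocyte-like nuclei at 8.53 ± 1.35 CPM and reached 94.6 ± 7.11 in T-cell-like and 92.9 ± 16.6 in B-cell-like nuclei. Slc7a5, the leucine and tryptophan carrier, was at 12.0 ± 4.26 CPM in T-cell-like nuclei and 1.40 ± 0.384 in adipocyte-like nuclei.

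In the Slc1 family, Slc1a5, the alanine, serine and cysteine carrier also known for glutamine, was at 1765 ± 149.7 CPM in adipocyte-like nuclei, 5.93 times its level in ASPC-like nuclei (298 ± 26.5). Slc1a3, a glutamate and aspartate carrier, was at 1056 ± 409 CPM in adipocyte-like nuclei and 11.4 times lower in the next class. Outside the classes described, an unnamed cluster of 114 nuclei led by Asic2 and Timd4 held 759 CPM of Slc1a3 from 378 UMIs. Slc1a1, another glutamate carrier, was at 54.3 ± 16.6 CPM in endothelial-like nuclei and at most 1.99 ± 2.68 in any other class described. Within the endothelial-like class, the cluster led by Car4 and Ccdc85a held 446 Slc1a1 UMIs.

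Slc36a2, a proton-coupled glycine and proline carrier, was at 243 ± 26.2 CPM in adipocyte-like nuclei, whereas Slc36a1, which also sits on lysosomes, was highest in macrophage-like nuclei (60.3 ± 6.85). Slc38a1, a glutamine carrier, was at 405 ± 77.6 CPM in B-cell-like and 249 ± 33.4 in T-cell-like nuclei, and at 1.40 ± 1.06 in adipocyte-like nuclei. Slc38a2 was present in every class, from 56.2 ± 7.83 CPM in adipocyte-like to 318 ± 125 in dendritic-cell-like and 316 ± 59.6 in NK-cell-like nuclei, and these last means differed by less than 1 SD. Slc38a6 and Slc38a9 were highest in macrophage-like nuclei (276 ± 11.8 and 228 ± 10.5 CPM), but Slc38a9 was at 227 ± 27.4 in B-cell-like nuclei and led there in 3 of 6 libraries. Slc38a11, named after its values were seen, was at 141 ± 67.7 CPM in mural-like nuclei. Its mural-like value was 6.60 CPM in knockout 1 and between 148 and 196 in the other libraries.

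The Slc43 family had a different class for each member. Slc43a3 was at 642 ± 115 CPM in ASPC-like nuclei, 2.74 times the endothelial-like mean of 234 ± 46.6. Slc43a2 was at 368 ± 33.2 CPM in macrophage-like and 229 ± 65.3 in monocyte-like nuclei. Slc43a1 was at 19.5 ± 8.32 CPM in adipocyte-like and 18.2 ± 4.88 in ASPC-like nuclei, and at most 2.68 ± 2.59 in the other described classes. In clusters outside these classes it was at 77.8 CPM (skeletal-muscle-like) and 38.4 (led by Frmpd4).

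Adipocyte-like nuclei held 3 clusters large enough to compare, each with its own leading genes. The cluster called c7 (led by Vat1l, Cfd, Fam13a and Pck1) had 6106 nuclei and a median of 5088 UMIs. Those called c8 (Mageb18, Pnpla3) and c13 (Cacna1e, Ptger3, Plagl1) had medians of 11856 and 11534 UMIs. Slc1a3 was at 1689 ± 645 CPM in c7, 2.09 times its level in c13 and 2.56 times that in c8, in 6 of 6 libraries each. Slc1a3 is also among the 10 leading genes of c7, although the members were left out of the genes used to cluster. Slc7a11 was 3.43 times higher in c7 than in c13, and Slc43a1 3.69 times higher in c7 than in c8, both in 6 of 6 libraries. In the other direction, Slc7a8 was at 402 ± 88.2 CPM in c13, 2.71 times c7 and 4.39 times c8. Slc7a10 and Slc36a2 were highest in c8, at 797 ± 75.5 and 316 ± 30.5 CPM. Slc38a2, Slc38a7, Slc38a9 and Slc38a10 differed by at most 1.12 times between any pair of the 3 clusters.

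**Figure D2:**
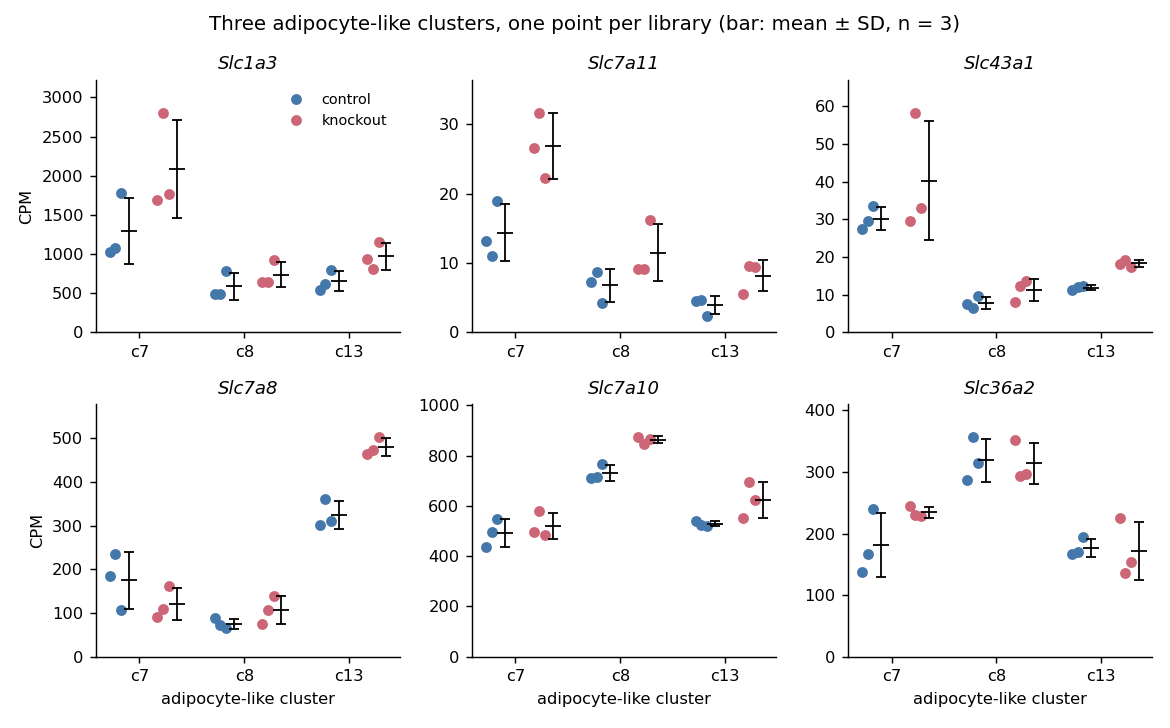
CPM of 6 members in the adipocyte-like clusters c7, c8 and c13; each point is a library (blue, controls; red, knockouts) and the black bars give mean ± SD of 3 libraries. Slc1a3, Slc7a11 and Slc43a1 stand highest in c7, Slc7a8 in c13 and Slc7a10 and Slc36a2 in c8, while within each cluster the knockout points of Slc7a11 lie above the control points.

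The share of these clusters differed between the groups. Cluster c7 held 28.9%, 29.6% and 35.1% of the adipocyte-like nuclei in control libraries and 54.5%, 66.6% and 65.9% in knockout libraries. Cluster c13 held 40.5%, 31.4% and 28.5% in control libraries and 18.3%, 11.3% and 18.0% in knockout libraries. These shares move with the levels of Slc1a3, Slc7a11, Slc43a1 and, in the other direction, Slc1a4 over the whole class, so that each is given below within the clusters too. The median depth of adipocyte-like nuclei also differed, from 9136 to 10154 UMIs in control libraries and from 5227 to 8607 in knockout libraries.

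Between the groups, 1 member passed the test in adipocyte-like nuclei, and it was Slc7a11, which rose in knockout libraries. Its level was 6.85, 7.59 and 6.93 CPM in control libraries and 14.4, 19.4 and 17.0 in knockout libraries. The control values lay within 1 CPM of each other, and every knockout value was above every control value. The log2 fold change was 1.18 ± 0.13 (SE; edgeR quasi-likelihood test, Benjamini-Hochberg adjusted p = 0.0128 over 15745 genes). Of all genes tested in this class, 1.12% were called higher in knockout libraries, 1.47% lower and 2.59% in either direction, so 1 of the 30 members tested is near the background. Of these 30, 18 were higher and 12 lower, with a median log2 fold change of 0.05 against 0.01 over all genes tested, and 12 had an unadjusted p under 0.05 (40%, against 22.9% of all genes). The values of the groups did not overlap for 9 members higher and 3 lower in knockout libraries. Over all genes the shares were 21.2% and 9.42%. The other 12 members were too low to test, and the self-test on simulated counts recovered 68.7% of genes changed by 1 on the log2 scale in this class.

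**Figure D3:**
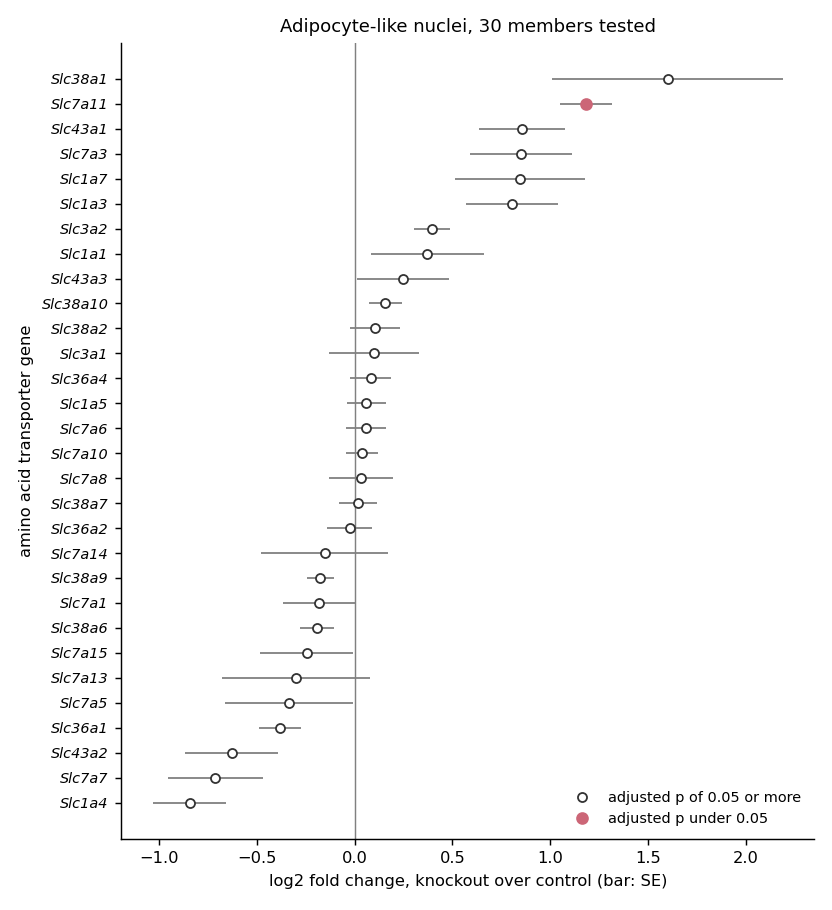
Log2 fold change (knockout over control) with its SE for the 30 members tested in adipocyte-like nuclei, ordered by size; the filled red point passed an adjusted p of 0.05 and the open points did not. Slc38a1 and Slc7a11 stand highest, at 1.6 and 1.18, and Slc1a4 lowest at -0.84.

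The call of Slc7a11 held in 12 of 18 alternative analyses, and its direction in all 18, from 0.77 to 1.39 on the log2 scale with adjusted p up to 0.0731. It was lost without control 1 (adjusted p = 0.0686), without knockout 2 (0.0557) and without knockout 3 (0.0568). It was also lost with the cluster of each nucleus as a term in the fit (0.77, adjusted p = 0.0692), among nuclei of 3000 to 8000 UMIs (0.97, 0.0622) and with the unnamed cluster put back (1.05, 0.0731). Within c7 it was 13.2, 11 and 18.9 CPM in control libraries and 26.6, 31.7 and 22.2 in knockout libraries, which do not overlap (log2 fold change 0.85 ± 0.21, adjusted p = 0.114). In c13 the difference was 1.01 ± 0.31 (adjusted p = 0.211), and in c8 0.68, both without overlap. Non-overlapping members numbered 4 higher and 2 lower in c7, where 13.7% and 7.42% of all genes were so placed, 7 and 2 in c13 (11.5% and 7.87%), and 3 and 1 in c8 (11.8% and 7%). No member passed the test in any of the 3 clusters, where 0.0318%, 0.107% and 0.0439% of all genes tested did in c7, c13 and c8. At an unadjusted p under 0.05 there were 6 of 24, 8 of 26 and 3 of 25 members tested. These were 25%, 30.8% and 12%, against 15.45%, 13.27% and 11.91% of all genes. Part of the Slc7a11 span is overlapped on the opposite strand by Gm37854, which held 88 UMIs in this class against 1406 of Slc7a11.

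**Figure D4:**
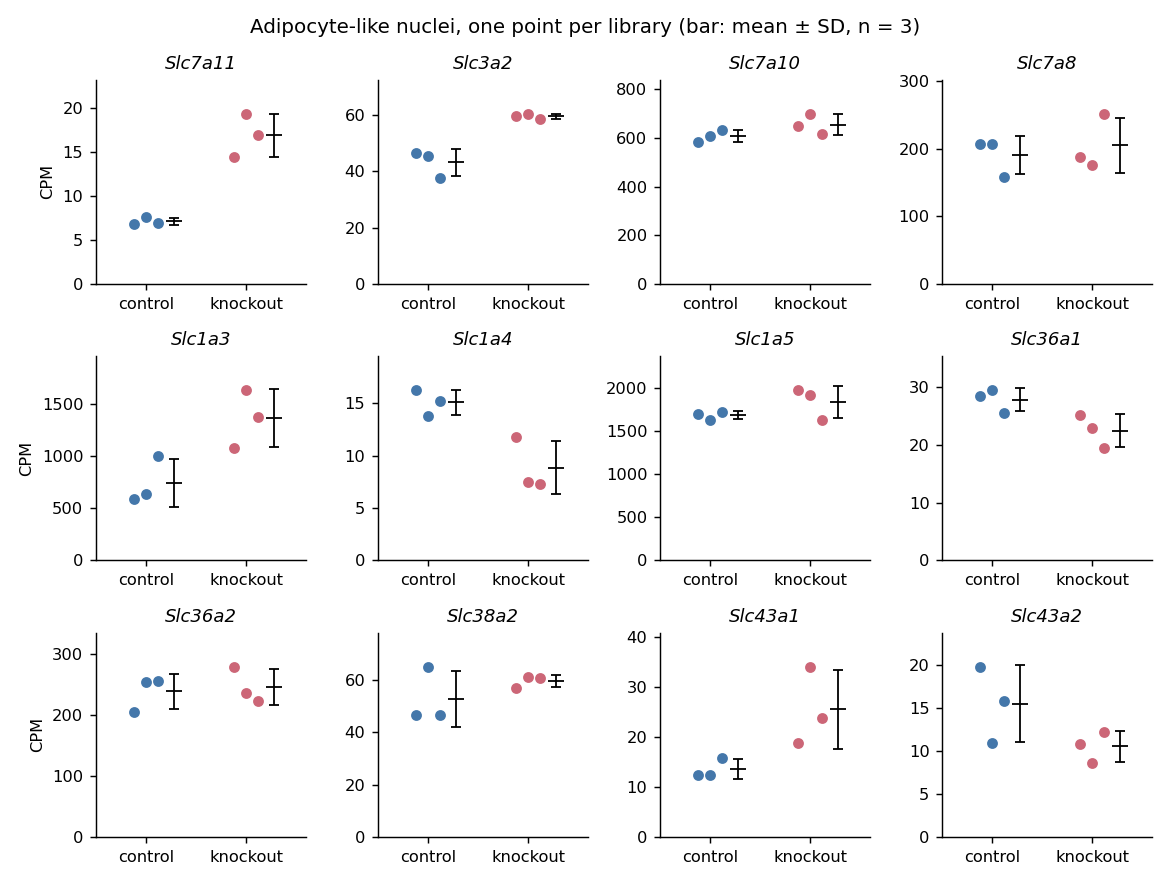
CPM of 12 members in adipocyte-like nuclei by library (blue, controls; red, knockouts) with mean ± SD of 3 libraries; every axis starts at 0. The groups do not overlap for Slc7a11, Slc3a2, Slc1a3 and Slc43a1 (knockouts higher) or for Slc1a4 and Slc36a1 (knockouts lower), and overlap for the other 6.

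The heavy chain Slc3a2 was at 46.5, 45.6 and 37.5 CPM in control libraries and 59.5, 60.5 and 58.8 in knockout libraries. The groups do not overlap, and the difference missed the threshold (log2 fold change 0.39 ± 0.09, adjusted p = 0.0654). With the cluster as a term, Slc3a2 passed (0.33, adjusted p = 0.0291), and its groups did not overlap in c7, c8 or c13. Among the light chains, Slc7a10 was at 585, 608 and 633 CPM in control libraries and 649, 699.5 and 617 in knockout libraries (0.04 ± 0.08, adjusted p = 0.817). Slc7a8 was at 208, 208 and 159 CPM in control libraries and 188, 176 and 252 in knockout libraries, with overlap. Within c13, where Slc7a8 was highest, it was 302, 361 and 311 CPM in control libraries and 464, 473 and 502 in knockout libraries, without overlap and short of the threshold (0.54 ± 0.10, adjusted p = 0.0657). Slc7a6 was at 103 ± 4.76 CPM in control libraries and 112 ± 14.2 in knockout libraries (adjusted p = 0.770).

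Slc1a3 was at 593, 636 and 1006 CPM in control libraries and 1081, 1636 and 1382 in knockout libraries. The values do not overlap, control 3 and knockout 1 are close, and the test was not passed (0.81 ± 0.235, adjusted p = 0.105). Within the clusters the differences were 0.64 in c7, 0.56 in c13 and 0.29 in c8. Slc1a5 was at 1698, 1634 and 1724 CPM in control libraries and 1979, 1923 and 1631 in knockout libraries (0.06 ± 0.10, adjusted p = 0.749), and the lowest value of all was in knockout 3. Slc1a4, a serine and alanine carrier named after its values were seen, was at 16.2, 13.8 and 15.2 CPM in control libraries and 11.8, 7.49 and 7.29 in knockout libraries (-0.84 ± 0.19, adjusted p = 0.0566). Its level in c13, the cluster with fewer knockout nuclei, was 18.1 ± 6.48 CPM, against 4.99 ± 0.851 in c7. Within the clusters the log2 fold changes of Slc1a4 were -0.72 in c13 (adjusted p = 0.316), -0.31 in c7 (adjusted p = 0.621) and -0.27 in c8 (adjusted p = 0.487). DESeq2 called both Slc1a3 and Slc1a4, along with Slc3a2, Slc43a1 and Slc7a11.

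In the remaining families no member passed in adipocyte-like nuclei. Slc43a1 was at 12.4, 12.3 and 15.8 CPM in control libraries and 18.7, 34.0 and 23.8 in knockout libraries (0.86 ± 0.22, adjusted p = 0.0813), with knockout 2 the highest. Within the clusters the log2 fold changes were 0.38 in c7 (adjusted p = 0.526), 0.50 in c8 (adjusted p = 0.443) and 0.61 in c13 (adjusted p = 0.109), and the groups overlapped in c7 and c8. In c13 the values were 11.1, 12.0 and 12.4 CPM against 18.2, 19.3 and 17.4. Slc36a1 was at 28.5, 29.5 and 25.6 CPM in control libraries and 25.1, 22.9 and 19.5 in knockout libraries (-0.38 ± 0.11, adjusted p = 0.0912). Slc36a2 was at 206, 255 and 256 CPM in control libraries and 279, 236 and 223 in knockout libraries, with overlap. Slc38a6, Slc38a7, Slc38a9, Slc38a10 and Slc38a2 had log2 fold changes between -0.19 and 0.16. Slc43a3 was at 18.9 ± 1.23 CPM in control libraries and 23.4 ± 8 in knockout libraries.

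Slc38a1 and Slc43a2, both low in adipocyte-like nuclei, are given beside the markers of the cells that hold most of them. Slc38a1, 405 CPM in B-cell-like nuclei, was at 0.358, 0.351 and 1.35 CPM in adipocyte-like nuclei of the controls and 3.21, 1.30 and 1.84 in knockout libraries (1.6 ± 0.59, adjusted p = 0.164). Of the 149 Slc38a1 UMIs behind these values, 11 from controls and 35 from knockouts came from c6, a cluster of 66 nuclei of which knockout 1 gave 33. Over all adipocyte-like nuclei, the 7 B cell markers other than Ebf1, which adipocytes express, were all detected. Their sums there were 54.4, 77.0 and 59.5 CPM in control libraries and 122, 65.0 and 63.6 in knockout libraries. Slc43a2, 368 CPM in macrophage-like nuclei, was at 19.7, 10.9 and 15.7 CPM in control libraries and 10.8, 8.56 and 12.1 in knockout libraries (-0.63 ± 0.24, adjusted p = 0.174). The 9 macrophage markers, all detected, summed to 54.7 to 72.7 CPM in control libraries and 35.0 to 44.9 in knockout libraries. The part of this RNA in the differences was not tested.

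In whole tissue, the sum over all kept nuclei, no member passed the edgeR test, where 0.0466% of all genes did. Of the 38 members tested, 12 had an unadjusted p under 0.05 (31.6%, against 28.5% of all genes). The groups did not overlap for 6 members higher and 5 lower in knockout libraries, against 25.6% and 11% of all genes. In such sums, more nuclei of a type and more RNA per nucleus cannot be told apart. Slc7a11 was at 14.7, 15.7 and 14.4 CPM in control libraries and 27.0, 32.8 and 27.8 in knockout libraries (0.88 ± 0.10, adjusted p = 0.0576). Slc1a4 was at 10.6, 9.85 and 10.4 CPM in control libraries and 6.10, 5.62 and 5.14 in knockout libraries (-0.96 ± 0.11, adjusted p = 0.0576). Slc38a1 was at 17.5, 11.8 and 25.7 CPM against 103, 36.4 and 69.2, alongside the larger share of B-cell-like nuclei. With the replicate number as a block, 4 members passed, Slc7a11, Slc7a1, Slc1a4 and Slc38a1, and without knockout 2 there were 10. Slc1a2, a glutamate carrier, had the largest whole-tissue difference (3.31, adjusted p = 0.0679). Of its knockout UMIs, 58.9% came from 26 knockout nuclei of the cluster with the liver genes, whereas the 110 control nuclei of that cluster gave 0.

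Outside adipocytes, no member passed the test in ASPC-like, macrophage-like, endothelial-like, T-cell-like, B-cell-like or mural-like nuclei. The shares of all genes called in either direction there were 0.328%, 0.651%, 0.0758%, 4.68%, 0.161% and 0%. At an unadjusted p under 0.05 there were 8 of 29, 8 of 24, 7 of 20, 2 of 11, 1 of 17 and 3 of 15 members tested. These were 27.6%, 33.3%, 35%, 18.2%, 5.88% and 20%, against 11.2%, 13.05%, 8.14%, 17.1%, 9.19% and 5.17% of all genes. DESeq2 called 2 members in ASPC-like nuclei, 1 in macrophage-like nuclei and 0 in the other 4. The groups did not overlap for 4 members higher and 7 lower in ASPC-like nuclei (8.41% and 8.03% of all genes), 3 and 3 in macrophage-like nuclei (7.92% and 9.7%) and 2 and 3 in endothelial-like nuclei (7.75% and 6.12%). Slc7a11 in ASPC-like nuclei was at 57.8, 61.6 and 60.1 CPM in control libraries and 69.3, 102 and 73.8 in knockout libraries (0.45 ± 0.14, adjusted p = 0.247). In macrophage-like nuclei it was at 7.21, 7.80 and 2.39 CPM against 10.6, 11.9 and 11.3 (0.90), so that the groups did not overlap in either class. Slc43a3 in ASPC-like nuclei was at 468, 616 and 594 CPM in control libraries and 676, 683 and 815 in knockout libraries (0.37), also without overlap.

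Slc7a10 and Slc36a2, highest in adipocyte-like nuclei, had lower levels in ASPC-like, macrophage-like and endothelial-like nuclei of knockout libraries, without passing the test. Other members that were highest in adipocyte-like nuclei varied by class. Log2 fold changes were 0.44 for Slc43a1 and 0.06 for Slc1a5 in ASPC-like, 0.18 for Slc7a8 in macrophage-like and 0.31 for Slc1a3 in endothelial-like nuclei. Slc1a5 was at -0.42 in macrophage-like and -0.79 in endothelial-like nuclei, and Slc7a8 at -0.91 in ASPC-like and -0.99 in endothelial-like nuclei. For Slc1a3 the values were -0.30 in ASPC-like and -0.15 in macrophage-like nuclei, and for Slc1a4 -0.06 in ASPC-like nuclei. Slc43a1 was nearly as high in ASPC-like as in adipocyte-like nuclei, as given above. In ASPC-like nuclei Slc7a10 was at 23.4, 14.4 and 15.1 CPM in control libraries and 5.35, 8.68 and 7.99 in knockout libraries (-1.26 ± 0.25, adjusted p = 0.0760), and Slc36a2 at 7.59, 6.36 and 6.68 against 3.42, 4.10 and 1.19. In endothelial-like nuclei Slc7a10 was at 38.8, 28.2 and 23.4 CPM against 8.36, 9.28 and 14.1 (-1.54 ± 0.30, adjusted p = 0.119). The share of the adipocyte-like Plin1 level found in ASPC-like nuclei was 2.42% in control libraries and 1% in knockout libraries, and in endothelial-like nuclei 4.01% and 2.56%. For Adipoq the shares were 12.0% and 6.48% in ASPC-like and 48.1% and 23.1% in endothelial-like nuclei. The summed level of the 8 adipocyte markers, all detected, was 383 to 457 CPM in ASPC-like nuclei of the controls and 281 to 325 in knockout libraries. The part of free adipocyte RNA in these differences was not tested.

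The difference of the genotype effect between classes was tested directly, with the library as a block. Against ASPC-like nuclei, the effect of 4 members differed, each with the higher log2 fold change in adipocyte-like nuclei, beside 1.19% of all genes in either direction. Slc1a3 had the lowest adjusted p (0.0054), with a difference of 1.18 ± 0.14 on the log2 scale, from 0.81 in adipocyte-like and -0.30 in ASPC-like nuclei. It passed without each of the 6 libraries in turn. In ASPC-like nuclei Slc1a3 stood at 9.58% of its adipocyte-like level in control and 4.15% in knockout libraries. The fit did not hold the adipocyte clusters fixed for any member, and c7, where Slc1a3 was highest, held 31.2% of adipocyte-like nuclei in controls and 62.4% in knockouts. The parts of free adipocyte RNA and of cluster makeup were not tested. Slc7a11 differed by 0.78 ± 0.12 (adjusted p = 0.0138), from 1.18 and 0.45, and lost the call without control 1 or knockout 3. Slc7a8 and Slc7a10 differed by 0.96 (adjusted p = 0.0160) and 1.33 (adjusted p = 0.0356), with effects of -0.91 and -1.26 in ASPC-like and 0.03 and 0.04 in adipocyte-like nuclei. They passed without 4 and 2 of the 6 libraries in turn. In ASPC-like nuclei Slc7a8 was at 29.3, 25.3 and 18.3 CPM in control libraries and 10.9, 14.3 and 13.9 in knockout libraries.

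Against macrophage-like nuclei, 1 member differed, beside 1.14% of all genes. Slc36a1 was lower in adipocyte-like and higher in macrophage-like nuclei of the knockouts (51.8, 56.3 and 57.1 CPM in control libraries, 59.8, 69.1 and 67.9 in knockout libraries), a difference of -0.70 ± 0.15 (adjusted p = 0.0486). The call was lost without any 1 of the 6 libraries. Against endothelial-like nuclei, 1 member differed, beside 0.722% of all genes, and it was Slc7a10 (1.565, adjusted p = 0.0148), which lost the call without knockout 2 (adjusted p = 0.168). For Slc7a11 the difference did not pass against macrophage-like (0.25 ± 0.32, adjusted p = 0.767) or endothelial-like nuclei (1.33 ± 1.07, adjusted p = 0.749).

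**Figure D5:**
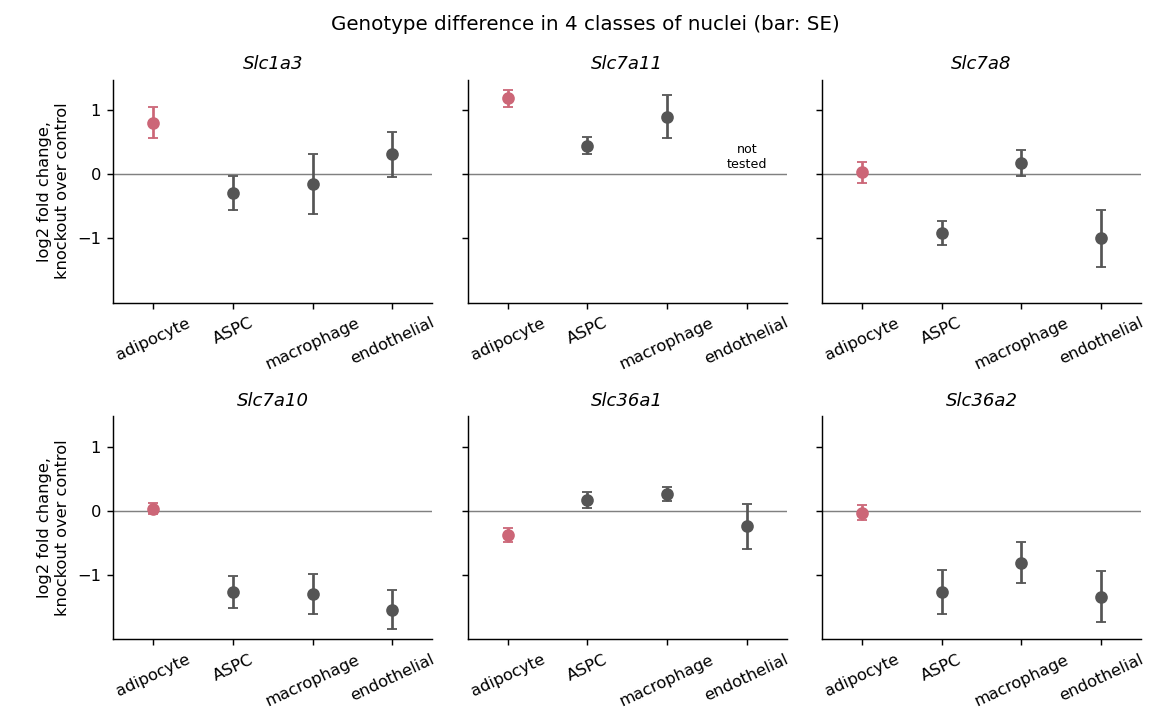
Log2 fold change (knockout over control) with its SE for 6 members in adipocyte-like (red), ASPC-like, macrophage-like and endothelial-like nuclei (grey). Slc1a3 and Slc7a11 stand above 0 in adipocyte-like nuclei, Slc7a10 and Slc36a2 near 0 there and at -0.80 or lower in the other 3 classes, and Slc36a1 is below 0 in adipocyte-like nuclei.

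Genes that work beside these transporters were read from 7 lists in the same adipocyte-like fit, where 2.59% of all genes were called. Aspa, which splits N-acetylaspartate, rose from 59.5, 54.7 and 70.6 CPM in control libraries to 117, 121 and 101 in knockout libraries (0.81 ± 0.11, adjusted p = 0.0230). It was 1 of 10 tested enzymes of glutamine, glutamate, alanine and asparagine. Prodh, the mitochondrial enzyme that begins proline breakdown, rose from 13.6, 16.8 and 15.9 CPM to 26.4, 34.5 and 31.4 (0.93 ± 0.12, adjusted p = 0.0209), as 1 of 10 tested enzymes of arginine and proline. Sesn3, a sestrin of the leucine-sensing branch upstream of mTORC1, fell from 74.0, 78.5 and 69.0 CPM to 53.6, 46.9 and 41.2 (-0.72 ± 0.10, adjusted p = 0.0236), as 1 of 37 genes of amino acid sensing. Aspa, Prodh and Sesn3 are given from this fit alone and not within the clusters, whose shares differed between the groups. The part of cluster makeup in their differences was not tested. None of the 26 tested genes of branched-chain amino acid breakdown, 15 of serine, glycine and cysteine enzymes, 16 of the amino acid stress response or 19 other amino acid carriers passed. Their median log2 fold changes were 0.08, 0.03, -0.01 and 0.01, against 0.01 over all genes. No gene of the 7 lists passed in the other tested classes or in whole tissue.

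Over the whole set, the 42 members summed to 4038, 4077 and 4487 CPM in adipocyte-like nuclei of the controls and 4926, 5439 and 4852 in those of the knockouts, without overlap. In CPM, 21.2% of all genes tested in this class were likewise higher without overlap, and 9.42% were lower. Within c7 the sums overlapped, at 4148, 4083 and 5273 CPM in control libraries and 5445, 6568 and 5091 in knockout libraries. In c8 and c13 they did not. The part of cluster makeup in the sum was not tested. In ASPC-like nuclei the sum was 1903 ± 135 CPM in control libraries and 2078 ± 57.5 in knockout libraries. The sum is carried by Slc1a5, Slc1a3 and Slc7a10 in adipocyte-like nuclei and says nothing of the lower members.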

How the data were processed

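Nuclei of subcutaneous fat went through a sucrose gradient and a DAPI sort before 10x 3′ library preparation, per the labels' protocols. The authors deposited UMI counts for each gene in each barcode. The submitters' processing notes name Cell Ranger 7.1, mm10 and GRCh38. All 32285 genes are mouse genes. Whether intronic reads and strand were used in counting is not given in the sources used here.

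The filters required 500 genes or more and a mitochondrial share of 5% or less, and the top-scoring 0.8% per 1000 barcodes were taken out as doublets. They were clustered with scanpy 1.11.5 (3000 variable genes without the members, 40 components, Leiden resolution 1). A cluster was named from fixed markers when at least 3 and 50% of a list were 2-fold up, unless a rival list came close, 80% of it came from 1 library or its leading genes went against the name. These limits were set after the clusters were seen. Counts were summed per class and library and tested with edgeR 4.0.16 (quasi-likelihood, TMM factors, low-count filter, Benjamini-Hochberg over all genes). The term for clusters was fitted with limma 3.58.1 (voom, library as a block), and DESeq2 1.42.0 was an alternative. On simulated data of 15517 genes, edgeR recovered 29.2%, 68.7% and 92.3% of genes changed by 0.5, 1 and 2 on the log2 scale in adipocyte-like sums, with 0.117% false calls. The adipocyte-like, ASPC-like, macrophage-like, endothelial-like, T-cell-like, B-cell-like and mural-like classes were tested, each with at least 20 nuclei in every library. The NK-cell-like, dendritic-cell-like and monocyte-like classes also met this limit (at least 33, 33 and 43 nuclei per library). They were described and not tested. With 3 libraries against 3, p-values measure the spread between these libraries.

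The members, marker lists and pathway lists were chosen with earlier results of these data known. Described in full were members past the threshold in a class, the widest-ranging member of each family, and members of at least 10 CPM in adipocyte-like nuclei of both groups (19). Deviations from the group mean correlated between same-numbered libraries at 0.413, 0.145 and 0.105 in whole tissue. In adipocyte-like nuclei the values were -0.0036, 0.189 and 0.0474. No label pairs these libraries, and control 2 with knockout 3 reached 0.284 in whole tissue. Promoter windows and positions are from RefSeq (GRCm38.p6) and GENCODE vM21 (mm10), which matched all 42 members.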

Additional observations from a re-analysis of the deposited data

Results flagged for a closer look

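The genotype effect differed between adipocyte-like and ASPC-like nuclei for 4 members by a test of the difference itself. The differences, adipocyte-like minus ASPC-like on the log2 scale, were 0.78 for Slc7a11, 1.33 for Slc7a10, 0.96 for Slc7a8 and 1.18 for Slc1a3 (1.175 before rounding). The effect differed from macrophage-like nuclei by -0.70 for Slc36a1 and from endothelial-like nuclei by 1.56 for Slc7a10 (1.565 before rounding). For Slc7a10 and Slc7a8 the adipocyte-like effects were 0.04 and 0.03, and the ASPC-like effects -1.26 and -0.91, neither past the threshold. The share of the adipocyte-like Plin1 level found in ASPC-like nuclei moved with these, at 2.42% in control and 1% in knockout libraries, and its part in the differences was not tested. For Slc1a3 the range without each library in turn was 1.03 to 1.28, and for Slc36a1 it was -0.76 to -0.58. Slc1a3 in ASPC-like nuclei stood at 9.58% of its adipocyte-like level in control and 4.15% in knockout libraries. The parts of free adipocyte RNA and of cluster makeup in the Slc1a3 difference were not tested.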

How the results depend on the processing

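Counts of members called in adipocyte-like nuclei were 1 in the reported fit, 2 with library totals alone, 3 with no filter on low counts, 5 with DESeq2, 2 with the replicate block, 2 with doublets kept, 0 among nuclei of 3000 to 8000 UMIs, 0 with the unnamed cluster (added after seeing the data), and 0 to 3 without each library in turn (0 without control 1, knockout 2 or knockout 3; 3 without knockout 1). The 1 member called with clusters as a term was Slc3a2. In whole tissue the count of 0 became 2 with no filter, 6 with DESeq2, 4 with the replicate block, where the numbers pair the libraries, 1 among nuclei of at least 1000 genes, and 0 to 10 without each library (10 without knockout 2). With no filter it became 6 in ASPC-like, 3 in macrophage-like, 2 in endothelial-like and 1 in T-cell-like nuclei, and with DESeq2 2 in ASPC-like nuclei, 1 in macrophage-like nuclei, 1 in c13 and 2 in c7. Without each library it ranged from 0 to 1 in ASPC-like nuclei (control 3 left out), 0 to 1 in T-cell-like nuclei (control 2, knockout 2 or knockout 3 left out) and 0 to 2 in c7 (control 3 left out). Differences between classes numbered 1 to 4 against ASPC-like (1 without control 1 or knockout 3), 0 to 3 against macrophage-like (3 without control 2) and 0 to 2 against endothelial-like nuclei (0 without knockout 2). Members near 0 changed sign. Slc36a2 (-0.02) became 0.044 with library totals, 0.0055 with classes by marker score, 0.12 in the depth window, 0.061 with clusters as a term and 0.036 with the unnamed cluster. Slc38a7 (0.02) became -0.0298 with doublets kept and -0.0258 with the length trend removed. Slc7a6 became -0.148 in the depth window and -0.00995 with clusters as a term, Slc7a8 -0.241 and Slc7a10 -0.145 in the depth window, Slc7a10 -0.0254 with the length trend removed, and Slc43a3 -0.0823 with the unnamed cluster. Without each library in turn the ranges were -0.121 to 0.035 for Slc36a2, -0.0482 to 0.0568 for Slc38a7, -0.0555 to 0.131 for Slc7a6, -0.149 to 0.138 for Slc7a8, -0.00819 to 0.0727 for Slc7a10 and -0.00893 to 0.483 for Slc43a3. The causes were not tested. The replicate block changed no other call than those given. The 3 libraries a group limit every call, and 12 members were too low to test in adipocyte-like nuclei.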
